A study of Homo sapiens with 9 samples.

Results

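Adipogenic transcription factors were examined as a group of 10 of the 17687 named genes, PPARG, PPARA, PPARD, CEBPA, CEBPB, CEBPD, KLF15, ZNF423, EBF1 and EBF2, in adipose-derived stem cells (ASCs) cultured toward keratinocyte-like cells with or without an inhibitor of Rab7. Each gene was found by its symbol in the platform annotation, and each had 1 probe set among the 21448 probe sets of the array, so that no choice between probe sets was needed. The samples were ASC52telo cells, a single ASC line that divides without limit because it carries human telomerase, and all groups were grown for 10 days on collagen in differentiation medium (DM), which holds BMP-4, EGF, ascorbic acid 2-phosphate, hydrocortisone and all-trans retinoic acid. The groups were DM with 40 μM CID-1067700 (CID), a competitive small-molecule inhibitor of the late endosomal GTPase Rab7, DM with 0.1% DMSO as the vehicle (DMSO), and DM alone, with 3 arrays each. Whether the wells with CID also held DMSO is not given in the sources used here. A line of 1 origin limits what the samples stand for, and since the replicates are called biological without a statement that they were separate cultures, the p-values below reflect the spread of these 3 samples a group, possibly a technical one.

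Adipogenesis runs as a cascade of transcription factors. In preadipocytes CEBPB and CEBPD are induced first, by hormones that include glucocorticoids, and they lead to the induction of PPARG and CEBPA, which then maintain each other and switch on the genes of lipid storage. PPARG, PPARA and PPARD are nuclear receptors that bind DNA together with an RXR and respond to fatty acids, while ZNF423, EBF1 and EBF2 mark cells committed to the fat lineage and KLF15 acts within the cascade and is itself a glucocorticoid-induced gene.

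Values are log2 intensities, 1 per probe set and array, so that a difference of 1 is a 2-fold change. They rank arrays for 1 gene, and they do not rank genes, because probe sets differ in brightness. The median of an array lay between 7.06 and 7.14. Over all probe sets, which are not independent of each other, pairs of arrays of a group correlated at 0.994 to 0.995. Pairs of different groups correlated at 0.991 to 0.995, and precision is limited by having 3 arrays a group. A DEG here is a probe set with an adjusted p under 0.05 from limma (Benjamini-Hochberg over all 21448 probe sets) and a linear fold change of at least 1.5. Of the 13 stromal cell markers 0 were in the dimmest 33.3% of probe sets (mean below 5.40), against 6 of 15 adipocyte markers, ADIPOQ, FABP4 and PLIN1 among them, and 9 of 13 keratinocyte markers. Bulk RNA was measured, so that fewer cells of a type and less RNA per cell cannot be told apart.

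The stretch of 250 bases before a gene's start is shown for the genes with such an entry whose values the results turn on. RefSeq windows on GRCh38.p14 were matched for 8 of the 10 factors, with 16 starts in all, and CEBPD and EBF2 are named only. KLF15 and EBF1 had their lowest values on the CID arrays, PPARG is the receptor at the end of the cascade, shown at the last of its 6 listed starts, and PDK4 is the PPAR target with the highest fold change. Capitals mark matches, on either strand, to any of 7 motifs. These were TTGCNNAA (C/EBP), TCCC and GGGA with 2 bases between (EBF), AGGTCA (bound by nuclear receptors) and its direct repeat with 1 base between (PPAR with RXR), AGAACA (bound by the glucocorticoid receptor) and its palindrome with 3 bases between, and the GC box GGGCGG (KLF and SP factors). A short motif can lie within its repeat or palindrome, and neighbouring GC boxes can overlap.
KLF15, chr3:126357409-126357658, minus strand: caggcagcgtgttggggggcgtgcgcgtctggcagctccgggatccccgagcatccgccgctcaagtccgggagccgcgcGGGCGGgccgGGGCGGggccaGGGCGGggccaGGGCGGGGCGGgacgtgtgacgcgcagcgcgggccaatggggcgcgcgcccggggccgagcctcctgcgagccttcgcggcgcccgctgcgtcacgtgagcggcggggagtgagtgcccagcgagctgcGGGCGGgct
EBF1, chr5:159097957-159098206, minus strand: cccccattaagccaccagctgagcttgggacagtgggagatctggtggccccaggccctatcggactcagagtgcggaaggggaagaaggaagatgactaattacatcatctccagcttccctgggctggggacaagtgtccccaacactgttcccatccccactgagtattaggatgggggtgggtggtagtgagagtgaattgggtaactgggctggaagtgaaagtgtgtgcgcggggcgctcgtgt
PPARG, chr3:12351167-12351416, plus strand: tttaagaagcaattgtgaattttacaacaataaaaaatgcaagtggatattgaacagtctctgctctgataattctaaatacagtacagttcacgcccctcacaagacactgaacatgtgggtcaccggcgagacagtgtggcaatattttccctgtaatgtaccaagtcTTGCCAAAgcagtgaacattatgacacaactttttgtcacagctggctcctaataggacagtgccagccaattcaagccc
PDK4, chr7:95596517-95596766, minus strand: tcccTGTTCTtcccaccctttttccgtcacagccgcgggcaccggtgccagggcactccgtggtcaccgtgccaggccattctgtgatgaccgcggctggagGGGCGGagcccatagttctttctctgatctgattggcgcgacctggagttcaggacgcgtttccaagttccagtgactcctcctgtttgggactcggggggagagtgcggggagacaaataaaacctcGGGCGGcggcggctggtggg

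KLF15 held 6 GC boxes in this window, EBF1 held no match to any of the 7 motifs, and the last start of PPARG held 1 C/EBP match, 80 to 73 bases before the start. PDK4 held 2 GC boxes and 1 AGAACA match 246 to 241 bases before its start. Of all 35116 windows of this length, 42.6% held a GC box, 9.05% a C/EBP match, 1.06% an EBF match, 12.1% AGGTCA, 12.4% AGAACA, 0.0171% the direct repeat and 0.00285% the palindrome. The C/EBP match of PPARG was the only one among the 16 windows of the 8 factors, and AGGTCA was found at the first 3 starts of PPARG alone. The windows of starts 2 and 3 overlap almost wholly, and their AGGTCA, 14 to 9 and 24 to 19 bases before the start, is the same stretch. A match is a description of these letters, not a site in use, and the array has 1 probe set for PPARG, so that its starts could not be told apart in the expression values.

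ASCs treated with CID had lower values of CEBPD and KLF15 and, by smaller amounts, of EBF1 and EBF2 on every array than ASCs treated with DM or DMSO, while PPARG, PPARA, PPARD, CEBPA, CEBPB and ZNF423 overlapped with the DM arrays. Against DM, 0 of the 10 factors were DEGs, beside 1.35% of all probe sets (289, or 0.97% lower). With no adjustment and no fold threshold, 3 of 10 had p under 0.05 from limma, CEBPD, KLF15 and EBF1, all lower. Of all probe sets 6.9% were lower at that level. The methods' t-test is given for the study in general and not for the arrays. With the 1.5-fold threshold kept, it called 2 of the 10 at an unadjusted p under 0.05, beside 570 of all probe sets. After adjustment it called 0 of the 10, beside 2 of all probe sets. Against DMSO, 1 of 10 was a DEG, CEBPD, beside 2.41% of probe sets (517, or 1.74% lower), and 4 of 10 had an unadjusted p under 0.05, all lower, beside 7.96% of probe sets that were lower. All CID arrays lay below all DM arrays for 4 of 10 factors, beside 9.22% of probe sets, and below all DMSO arrays for 5 of 10, beside 10.7%, and below all 6 control arrays for 4 of 10, beside 5.33%. The 2 comparisons share the CID arrays, and setting CID against both controls averaged, in the same fit, called CEBPD and KLF15, 2 of 10, beside 2.44% of probe sets (1.79% lower). The median log2 fold change of the 10 factors was -0.205 against DM and -0.225 against DMSO, beside 0.0067 and 0.017 over all probe sets.

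**Figure D1:**
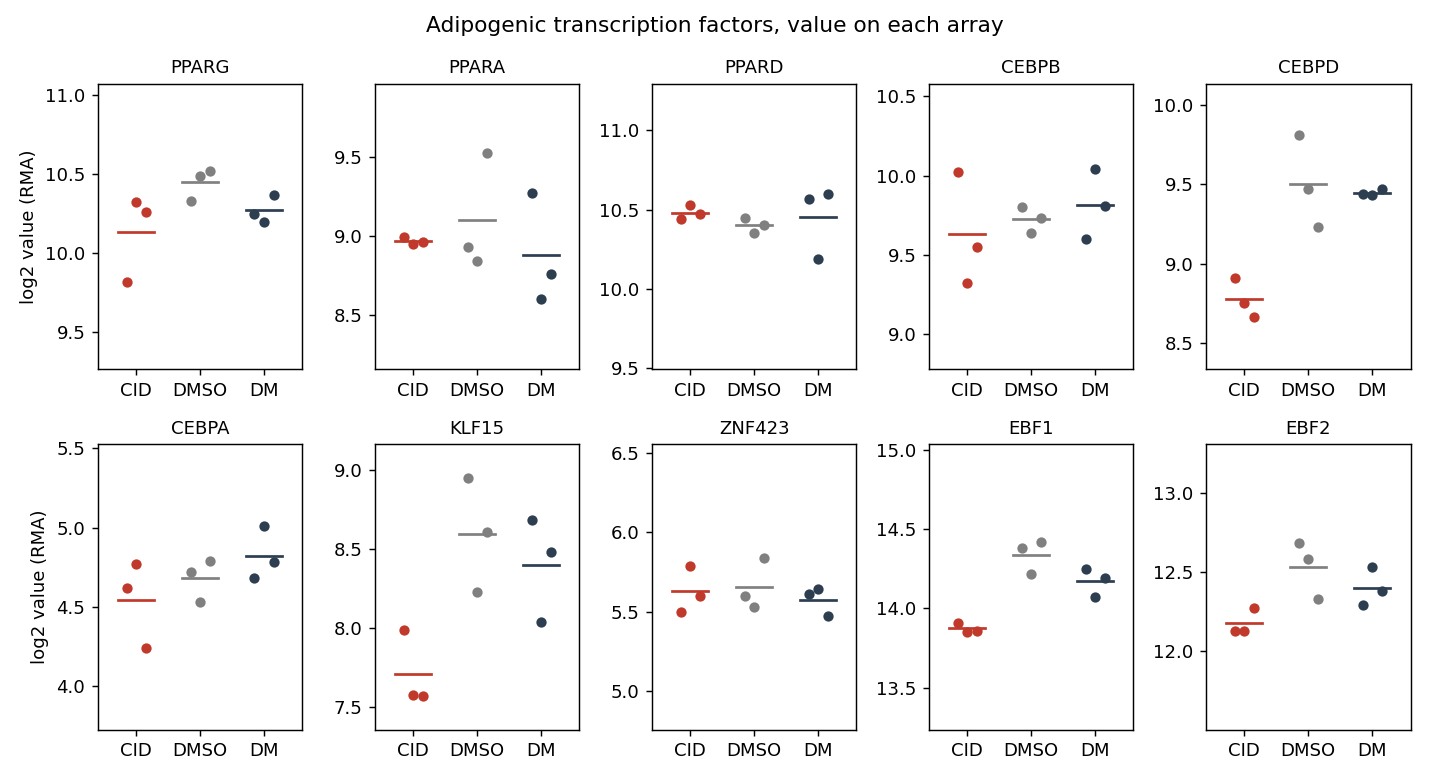
Log2 value (vertical axis, 1.8 log2 units high in every panel) of the 10 transcription factors on each of 9 arrays, with CID, DMSO and DM from left to right, replicates 1 to 3 from left to right within a group and the group mean as a bar. All 3 CID arrays of CEBPD, KLF15, EBF1 and EBF2 lie below the 6 DMSO and DM arrays.

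PPARG, the nuclear receptor that directs adipocyte differentiation, had log2 values of 9.82, 10.32 and 10.26 with CID, 10.33, 10.49 and 10.52 with DMSO, and 10.25, 10.20 and 10.37 with DM. The first CID array was the lowest of the 9, the other CID arrays lay among the DM arrays, and all 3 CID arrays lay below the DMSO arrays. Its log2 fold change was -0.14 against DM (SE 0.15, adjusted p = 0.751 from limma) and -0.31 against DMSO (adjusted p = 0.347). The 95% interval was -0.46 to 0.18 against DM, and without the first CID array that fold change was 0.017.

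PPARA, the receptor known for fatty acid oxidation, had 8.99, 8.95 and 8.96 with CID, 8.93, 8.84 and 9.52 with DMSO, and 9.27, 8.60 and 8.76 with DM. The CID arrays were close together inside the range of both controls, where DMSO replicate 3 and DM replicate 1 stood above the rest. The log2 fold change was 0.09 against DM and -0.13 against DMSO (SE 0.20, adjusted p = 0.899 and 0.825 from limma). PPARD, the most widely expressed of these receptors, had 10.44, 10.53 and 10.47 with CID, 10.45, 10.35 and 10.40 with DMSO, and 10.57, 10.19 and 10.60 with DM. Again the CID arrays fell within the DM range, and the log2 fold change was 0.03 against DM (95% interval -0.26 to 0.31, adjusted p = 0.957 from limma) and 0.08 against DMSO. The interval of PPARA against DMSO ran from -0.58 to 0.32, so that changes of up to about 1.5-fold in that receptor lay within it.

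Of the 3 C/EBP factors, 1 was called. CEBPD, which acts early in the cascade, had log2 values of 8.91, 8.75 and 8.66 with CID, 9.81, 9.47 and 9.23 with DMSO, and 9.44, 9.43 and 9.47 with DM. The highest CID array was 8.91 and the lowest control array was 9.23, so that CID did not overlap with either group, and the DMSO arrays were the most spread. CEBPD fell by 0.73 on the log2 scale against DMSO (SE 0.15, 1.66-fold lower, adjusted p = 0.0290 from limma), a DEG. Against DM it was -0.67 (SE 0.15, upper end of the 95% interval -0.34, adjusted p = 0.0602), past the fold threshold but not the adjusted p, and against the mean of both controls it was -0.70 (adjusted p = 0.0148). The call against DMSO was lost without CID replicate 1 (adjusted p = 0.0552), 2 (0.0908) or 3 (0.107) or without DMSO replicate 1 (0.0776) or 2 (0.0833), and in a fit of only those 6 arrays (0.0710). The call against DM was gained without DMSO replicate 1 (0.0317) or 3 (0.0472) and in a fit of the 6 arrays of those groups (0.0432).

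CEBPB, its early partner, had 10.02, 9.32 and 9.55 with CID, 9.80, 9.64 and 9.73 with DMSO, and 9.60, 10.04 and 9.81 with DM. The CID arrays spanned both the lowest values and one near the top, and the log2 fold change was -0.19 against DM (SE 0.18, 95% interval -0.58 to 0.21, adjusted p = 0.726 from limma) and -0.09 against DMSO. CEBPA, which maintains PPARG in mature fat cells, had 4.62, 4.77 and 4.24 with CID, 4.72, 4.53 and 4.79 with DMSO, and 4.68, 5.01 and 4.78 with DM. It was the only one of the 10 factors in that dimmest 33.3% of probe sets, where a change is compressed on this scale, and its log2 fold change was -0.28 against DM (SE 0.16, adjusted p = 0.506) and -0.14 against DMSO. All 3 groups overlapped for CEBPA and for CEBPB.

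KLF15, a zinc finger factor that in mouse preadipocytes promotes PPARG expression, had 7.99, 7.58 and 7.57 with CID, 8.95, 8.23 and 8.61 with DMSO, and 8.68, 8.04 and 8.48 with DM. The CID arrays lay below all 6 control arrays, although CID replicate 1 came close to DM replicate 2. The log2 fold change was -0.88 against DMSO (SE 0.22, 1.84-fold, adjusted p = 0.0589 from limma), -0.69 against DM (adjusted p = 0.186) and -0.79 against the mean of both controls (adjusted p = 0.0462, a DEG). Without DM replicate 2 or without DMSO replicate 2 the adjusted p against DMSO was 0.0475 and 0.0492, which made it a DEG there too. These were 2 of 9 fits without an array, and in the others the adjusted p from limma was up to 0.176. Against DM it was 0.126 to 0.390 in the 9 fits, with no call. KLF15 was also a DEG against DMSO with a trended and robust prior (adjusted p = 0.0198 from limma), without the dimmest 33.3% of probe sets (0.0341) and with array weights (0.0355). With the replicate number as a block it was a DEG against both DMSO (0.0118) and DM (0.0459).

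EBF1, a factor of early adipocyte commitment, had 13.91, 13.85 and 13.86 with CID, 14.38, 14.22 and 14.42 with DMSO, and 14.25, 14.07 and 14.19 with DM. The CID arrays were close to each other and below every control array. Its log2 fold change was -0.47 against DMSO (SE 0.11, 1.38-fold, adjusted p = 0.0564 from limma) and -0.30 against DM (adjusted p = 0.288), under the fold threshold in both. EBF2, which marks committed brown and beige precursors, had 12.13, 12.13 and 12.27 with CID, 12.68, 12.58 and 12.33 with DMSO, and 12.29, 12.53 and 12.38 with DM. Again no CID array reached a control array, although CID replicate 3 came close to DM replicate 1, and the log2 fold change was -0.35 against DMSO (SE 0.13, adjusted p = 0.212) and -0.22 against DM (adjusted p = 0.521). ZNF423, which commits precursors to the fat lineage, had 5.50, 5.79 and 5.60 with CID, 5.60, 5.53 and 5.84 with DMSO, and 5.61, 5.64 and 5.47 with DM, and the 3 groups overlapped, with a log2 fold change of 0.06 against DM (SE 0.13, 95% interval -0.23 to 0.34, adjusted p = 0.901) and -0.03 against DMSO.

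**Figure D2:**
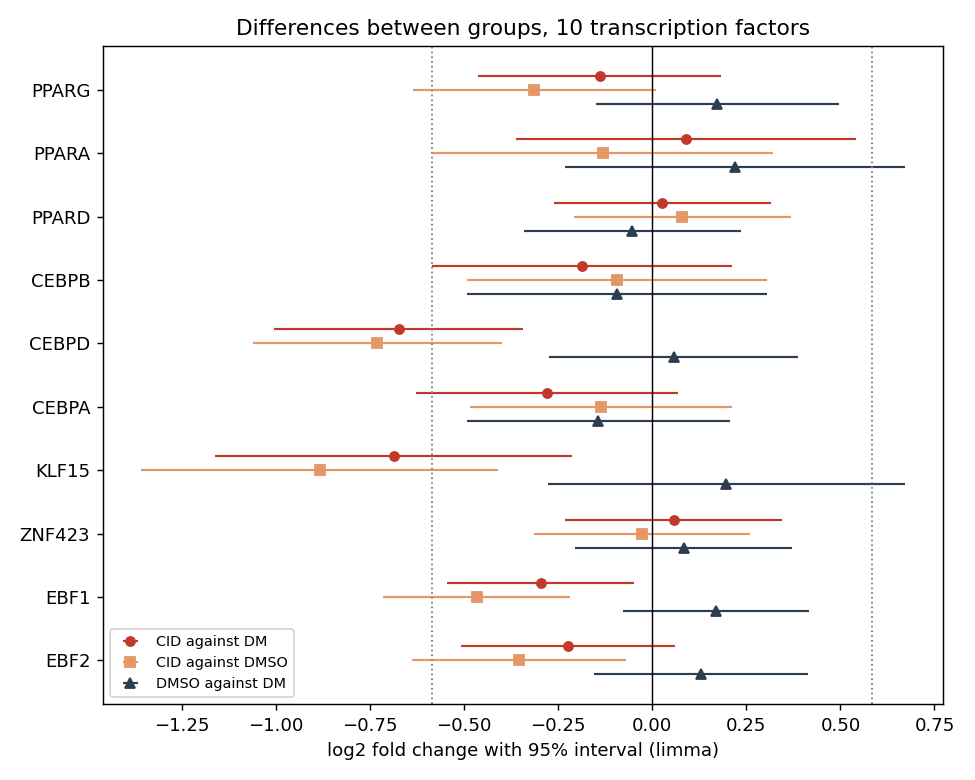
Log2 fold change (horizontal axis) of each transcription factor with its 95% interval from limma, for CID against DM (circles), CID against DMSO (squares) and DMSO against DM (triangles), 3 arrays per group, with the dotted lines at a 1.5-fold change. The intervals of CEBPD, KLF15 and EBF1 lie below 0 for both comparisons of CID, and that of EBF2 only against DMSO, before any adjustment over probe sets.

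The vehicle itself gave no call among the 10 factors. For DMSO against DM, 0 of 10 were DEGs by limma, beside 0.00466% of all probe sets (1 probe set). An unadjusted p under 0.05 was reached by 0 of 10, beside 6.98% of all probe sets. The methods' t-test with the 1.5-fold threshold also gave 0 of 10, beside 131 probe sets before adjustment and 0 after it. The log2 fold changes ran from -0.14 for CEBPA (SE 0.16, adjusted p = 0.895) to 0.22 for PPARA (SE 0.20, adjusted p = 0.870), with a median of 0.11 beside 0.00 over all probe sets, and the DMSO and DM arrays overlapped for all 10, where 6.25% of probe sets had all DMSO arrays below and 5.54% all DMSO arrays above the DM arrays. The values of PPARG, KLF15, EBF1 and EBF2 averaged higher with DMSO than with DM by 0.13 to 0.20. By arithmetic alone, their fold changes for CID, all below 0, were further from 0 against DMSO by the same amounts. PPARA averaged higher with DMSO by 0.22, and its log2 fold change for CID was 0.09 against DM and -0.13 against DMSO.

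The genes whose values over the 9 arrays were most like those of CEBPD, by the root mean square difference of values centred on each gene's mean, were ARHGAP10 (0.12), SRF (0.12) and ATF6B (0.13) among 17686 other named genes. SRF encodes the serum response factor, and ATF6B a factor of the unfolded protein response. ATF6B had 12.90, 12.71 and 12.91 with CID, 13.74, 13.47 and 13.54 with DMSO, and 13.53, 13.43 and 13.42 with DM. All 3 CID arrays were below all 6 controls, as the choice by likeness to CEBPD favours, and this is given as a description only.

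Among 16 measured relatives of the 10 factors (of 17 listed), 1 fell against DM, KLF5, beside 0.97% of all probe sets, 2 fell against DMSO, KLF5 and KLF9, beside 1.74%, and 0 rose in either. With no adjustment, 1 relative was higher and 3 were lower in each comparison. Of all probe sets 5.74% were higher and 6.9% lower at that level against DM, and 7.2% and 7.96% against DMSO. KLF5, which acts early in mouse adipogenesis and is also a factor of epithelial cells, had 7.10, 7.34 and 7.01 with CID, 7.62, 8.24 and 8.13 with DMSO, and 8.29, 8.09 and 7.82 with DM. The CID arrays lay below both controls, and KLF5 fell by 0.92 on the log2 scale against DM (SE 0.18, adjusted p = 0.0374 from limma) and by 0.85 against DMSO (adjusted p = 0.0359). KLF9, a glucocorticoid-induced factor, had 10.60, 10.81 and 10.73 with CID, 11.52, 11.29 and 11.82 with DMSO, and 11.32, 11.01 and 11.58 with DM, again without overlap. It fell by 0.83 against DMSO (SE 0.17, adjusted p = 0.0309), while its log2 fold change against DM was -0.59 (adjusted p = 0.152). The KLF5 call held in 3 of 9 fits without an array in each comparison (adjusted p up to 0.135 against DM, lost without any 1 CID array, DM replicate 1 or 2 or DMSO replicate 3, and up to 0.134 against DMSO, lost without any 1 CID array, DM replicate 2 or DMSO replicate 2 or 3), and that of KLF9 in 4 of 9 (up to 0.110, lost without any 1 CID array or DMSO replicate 1 or 3). The median log2 fold change of the relatives was 0.045 against DM and -0.048 against DMSO.

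The partners that PPARs need were measured for 12 of 17 listed genes, and RXRA, which encodes the common partner, had no probe set under that symbol. Of the 12, 0 were DEGs in either comparison of CID, beside 1.35% of all probe sets against DM and 2.41% against DMSO. In each, 1 was higher at an unadjusted p under 0.05, beside 5.74% of all probe sets against DM and 7.2% against DMSO. RXRB had 11.70, 11.53 and 11.71 with CID, 11.24, 11.06 and 11.30 with DMSO, and 11.46, 11.38 and 11.24 with DM. All CID arrays were above all controls, with a log2 fold change of 0.29 against DM (SE 0.12, adjusted p = 0.358 from limma) and 0.45 against DMSO (adjusted p = 0.0874), under the fold threshold. RXRG, one of the dim probe sets, had a log2 fold change of 0.09 against DM (adjusted p = 0.881) and 0.17 against DMSO (adjusted p = 0.705), and the groups overlapped.

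Of 32 measured PPAR target genes (of 38 listed, 7 in the dimmest 33.3%), 3 rose against DM and 4 rose against DMSO, and 0 fell in either. Genes that rose as DEGs made up 0.378% of all probe sets against DM and 0.667% against DMSO. This list, like the other lists here, was chosen with earlier results of these data known. Its counts are therefore a description only. With no adjustment, 8 targets were higher and 2 lower at p under 0.05 against DM, beside 5.74% and 6.9% of all probe sets, and 8 were higher and 3 lower against DMSO, beside 7.2% and 7.96%. PDK4, a kinase that turns cells from glucose to fatty acid use, had 8.32, 8.60 and 8.95 with CID, 6.36, 6.13 and 6.60 with DMSO, and 7.00, 6.94 and 6.51 with DM. Its lowest CID array was above its highest control array, and it rose by 1.81 on the log2 scale against DM (SE 0.19, 3.50-fold, adjusted p = 0.00151 from limma) and by 2.26 against DMSO (4.79-fold, adjusted p = 0.000334).

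PLIN2, the coat protein of lipid droplets in most cells, had 14.72, 14.75 and 14.61 with CID, 13.30, 12.85 and 13.42 with DMSO, and 13.37, 12.95 and 13.37 with DM. It rose by 1.46 against DM (SE 0.17, 2.76-fold, adjusted p = 0.00251 from limma) and 2.83-fold against DMSO (adjusted p = 0.00143), with both controls alike. ANGPTL4, a secreted inhibitor of lipoprotein lipase, had 6.34, 6.48 and 6.58 with CID, 5.40, 5.25 and 5.52 with DMSO, and 5.77, 5.71 and 5.73 with DM. It rose by 0.73 against DM (SE 0.12, adjusted p = 0.0137) and by 1.08 against DMSO (adjusted p = 0.00137). PDK4 and PLIN2 stayed DEGs in all 9 fits without an array in both comparisons, and so did ANGPTL4 against DMSO, whereas against DM ANGPTL4 lost the call without DM replicate 3 or CID replicate 2 or 3 (adjusted p up to 0.0609).

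ACADVL, an enzyme of mitochondrial β-oxidation, had 9.69, 9.18 and 9.36 with CID, 8.30, 8.65 and 8.79 with DMSO, and 8.56, 8.81 and 8.41 with DM. It rose by 0.83 against DMSO (SE 0.18, adjusted p = 0.0328 from limma), a call that held in 3 of 9 fits without an array (lost without DM replicate 1, CID replicate 1 or 3 or any 1 DMSO array, adjusted p up to 0.116), and its log2 fold change against DM was 0.82 (adjusted p = 0.0528). Under other scalings 3 or 4 targets rose against DM and 4 or 5 against DMSO. The median log2 fold change of the 32 targets was 0.16 against DM and 0.12 against DMSO, beside 0.0067 and 0.017 over all probe sets.

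The targets that mark adipocytes did not pass the test. FABP4, a fatty acid carrier of fat cells, had 3.97, 4.40 and 4.26 with CID, 3.91, 3.66 and 3.61 with DMSO, and 3.28, 3.80 and 3.95 with DM, a dim probe set. All CID arrays lay above all controls, with CID replicate 1 close to DM replicate 3. The log2 fold change was 0.53 against DM (SE 0.19, adjusted p = 0.241 from limma) and 0.48 against DMSO (adjusted p = 0.238). PLIN1, the droplet coat of fat cells, had 5.22, 5.95 and 5.39 with CID, 4.96, 4.35 and 5.40 with DMSO, and 4.75, 4.42 and 4.27 with DM. CID overlapped with DMSO but not with DM, and the log2 fold change was 1.04 against DM (SE 0.26, adjusted p = 0.0929 from limma) and 0.62 against DMSO (adjusted p = 0.297). ADIPOQ, which encodes the hormone adiponectin, lay between 2.84 and 3.16 on the CID arrays, 2.96 and 3.13 on the DMSO arrays, and 2.95 and 3.13 on the DM arrays, with a log2 fold change of -0.07 against DM (adjusted p = 0.877). For CIDEC, which fuses lipid droplets, it was 0.23 against DM (adjusted p = 0.646), and for LPL, the lipase at the vessel wall, -0.31 (adjusted p = 0.597), both with overlapping groups. Of 15 measured adipocyte markers 0 were DEGs in either comparison of CID, beside 1.35% of all probe sets against DM and 2.41% against DMSO. At an unadjusted p under 0.05, 3 were higher and 0 lower against DM, beside 5.74% and 6.9% of all probe sets. Against DMSO 3 were higher and 1 lower, beside 7.2% and 7.96%. FABP3, picked after its values were seen, had the lowest fold change among the PPAR targets, -1.49 against DM (SE 0.47, adjusted p = 0.191), with values of 6.46, 7.88 and 6.75 with CID, 7.94, 9.32 and 7.62 with DMSO, and 9.09, 8.55 and 7.92 with DM.

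**Figure D3:**
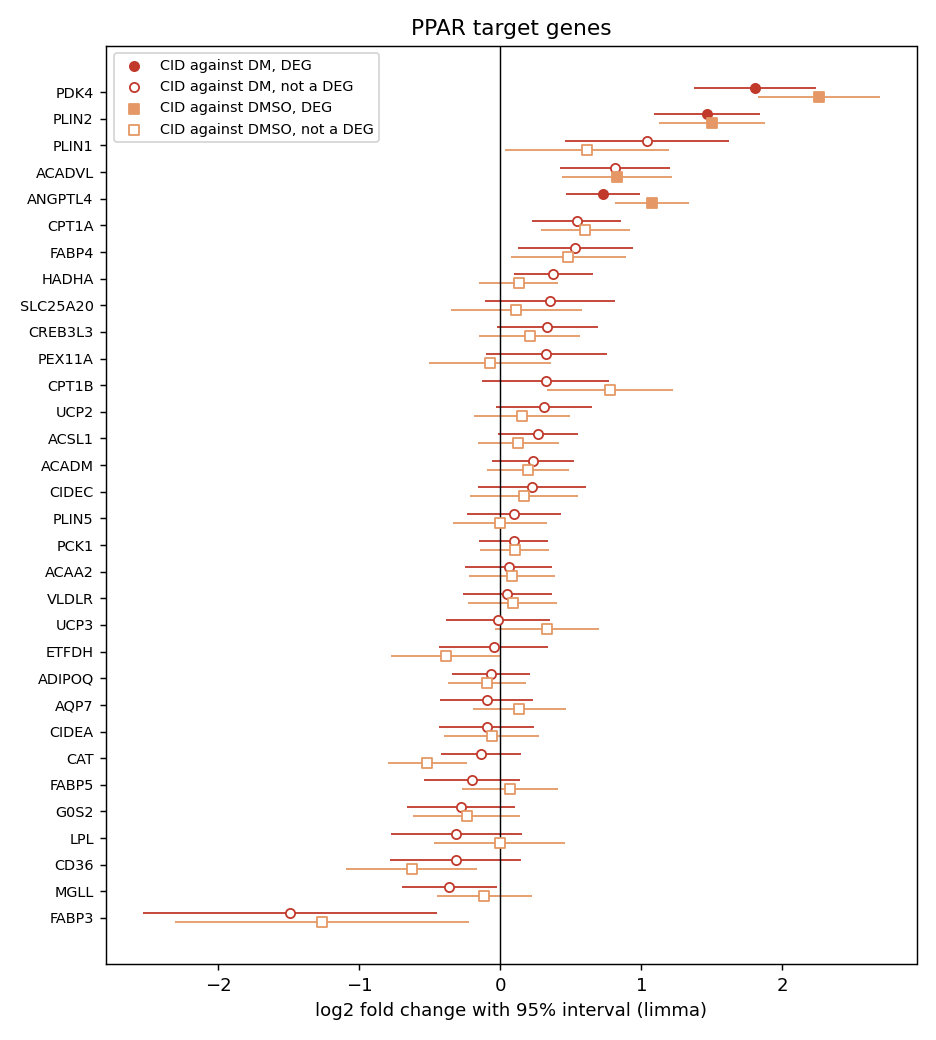
Log2 fold change (horizontal axis) of 32 PPAR target genes with 95% intervals from limma, for CID against DM (circles) and CID against DMSO (squares), 3 arrays per group, with DEGs filled, in the order of the fold change against DM. PDK4, PLIN2 and ANGPTL4 are filled in both comparisons and ACADVL against DMSO only.

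Most genes of a list that glucocorticoids induce had fold changes below 0, with the medium of all groups holding hydrocortisone. The list is short, was chosen with earlier results known and does not stand for all genes that these hormones induce. PDK4 and ANGPTL4, which rose, were not on it and were counted as PPAR targets. Against DM all 8 measured genes (of 10 listed) had a log2 fold change below 0, beside 48.2% of probe sets, and against DMSO 7 of 8, beside 46.4%, and the medians were -0.32 and -0.34. Of these, MAOA fell in both comparisons and KLF9, which is also on the list of relatives, fell against DMSO, 1 of 8 beside 0.97% of probe sets and 2 of 8 beside 1.74%. MAOA, a monoamine oxidase, had 7.77, 7.58 and 7.30 with CID, 9.45, 8.59 and 9.37 with DMSO, and 9.49, 8.49 and 8.86 with DM, a drop without overlap. It fell by 1.40 against DM (SE 0.28, adjusted p = 0.0338 from limma) and by 1.59 against DMSO (adjusted p = 0.0127), calls that were lost without any 1 CID array or without DM replicate 1 or 3 against DM (adjusted p up to 0.124) and without CID replicate 3 or DMSO replicate 3 against DMSO (up to 0.0611). NR3C1, the glucocorticoid receptor and one of the other activators of adipogenesis, picked after its values were seen, had 12.77, 12.78 and 12.60 with CID, 12.84, 12.61 and 13.01 with DMSO, and 12.85, 12.69 and 12.80 with DM, with a log2 fold change of -0.06 against DM (SE 0.13, adjusted p = 0.888).

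Of 9 measured other activators of adipogenesis (of 10 listed) 0 were DEGs, beside 1.35% of all probe sets against DM and 2.41% against DMSO. At an unadjusted p under 0.05, 1 was lower against DM, beside 6.9% of all probe sets, and 3 against DMSO, beside 7.96%. Of 13 measured inhibitors (of 14 listed), 1 fell against DM, TRIB2, beside 0.97% of all probe sets, 2 fell against DMSO, TRIB2 and FOXO1, beside 1.74%, and 0 rose in either. With no adjustment, 1 inhibitor was higher and 2 were lower against DM, beside 5.74% and 6.9% of all probe sets. Against DMSO 0 were higher and 2 lower, beside 7.2% and 7.96%. TRIB2, a pseudokinase that lowers C/EBP activity in mouse preadipocytes, had 7.28, 7.10 and 7.17 with CID, 7.74, 7.89 and 7.90 with DMSO, and 8.50, 8.32 and 8.74 with DM. The groups were stepped without overlap, and TRIB2 fell by 1.34 against DM (SE 0.13, adjusted p = 0.000988 from limma) and by 0.66 against DMSO (adjusted p = 0.0255), while for DMSO against DM it was -0.68 (adjusted p = 0.472). The call against DM held in all 9 fits without an array and that against DMSO in 4 of 9 (lost without any 1 CID array or DMSO replicate 2 or 3, adjusted p up to 0.0934).

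FOXO1, which restrains PPARG in mouse preadipocytes, had 8.57, 8.46 and 8.39 with CID, 9.61, 9.38 and 9.62 with DMSO, and 9.41, 9.08 and 8.62 with DM. It fell by 1.06 against DMSO (SE 0.18, adjusted p = 0.0112 from limma), with -0.56 against DM (adjusted p = 0.198). DM replicate 3 lay close to the CID arrays, and the call against DMSO was lost without CID replicate 3 or DMSO replicate 3 (adjusted p up to 0.0538). The median log2 fold change of the inhibitors was 0.08 in both comparisons.

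**Figure D4:**
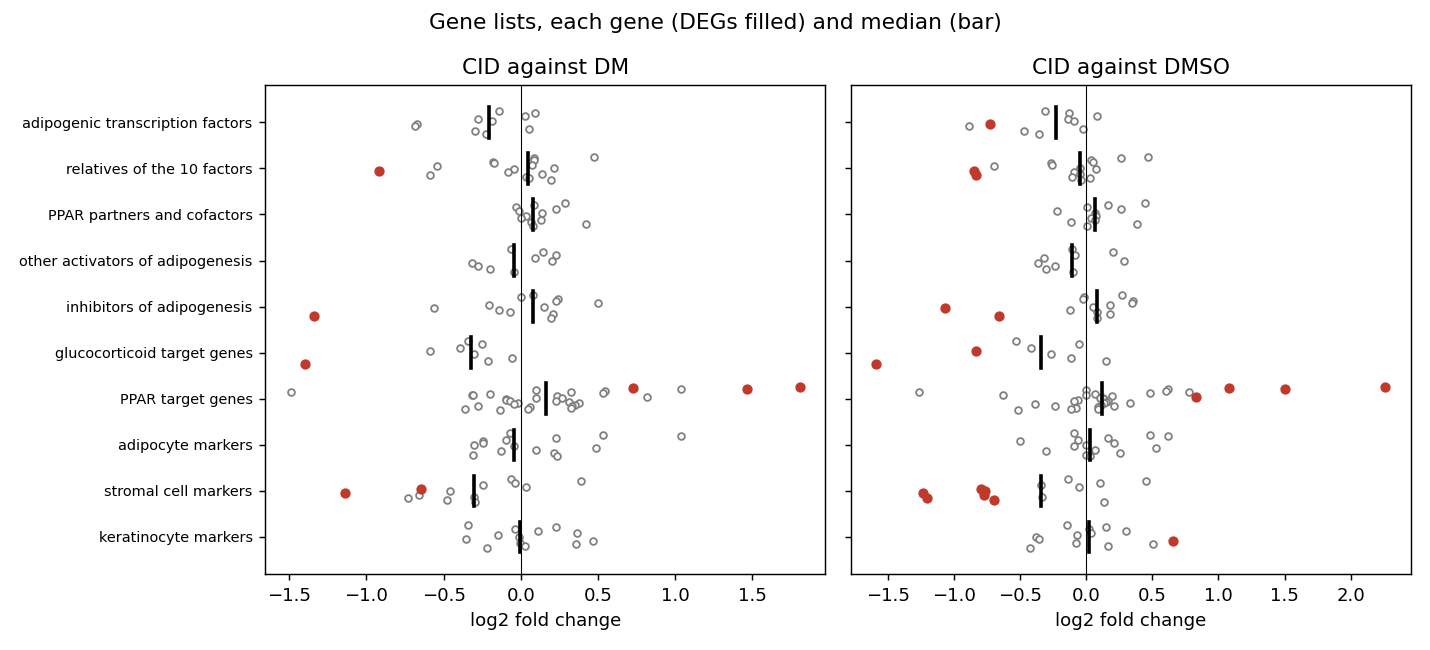
Log2 fold change (horizontal axis) of each measured gene in 10 gene lists, with DEGs filled and the median of each list as a bar, for CID against DM (left) and CID against DMSO (right). DEGs lie above 0 among the PPAR targets and, for DSP against DMSO, the keratinocyte markers, and below 0 in the other lists that hold any.

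Several stromal cell markers fell with CID. Of 13 measured, 2 fell against DM, PDGFRA and COL1A1, beside 0.97% of all probe sets, and 6 fell against DMSO, PDGFRA, PDGFRB, COL1A1, COL1A2, LUM and DCN, beside 1.74%, and 0 rose in either. With no adjustment, 0 were higher and 7 lower against DM, beside 5.74% and 6.9% of all probe sets. Against DMSO 1 was higher and 8 were lower, beside 7.2% and 7.96%. The higher one, THY1, a surface protein of stromal cells picked after its values were seen, had 12.92, 12.90 and 12.91 with CID, 12.45, 12.75 and 12.18 with DMSO, and 12.14, 12.72 and 12.70 with DM. Its CID arrays lay above all 6 controls, with a log2 fold change of 0.39 against DM (SE 0.18, adjusted p = 0.416 from limma) and 0.45 against DMSO (adjusted p = 0.271). The sum of their log2 values was 179.11 to 179.99 on the CID arrays, 184.64 to 185.44 on the DMSO arrays and 183.74 to 184.78 on the DM arrays, and for the 10 transcription factors it was 91.44 to 92.33, 93.88 to 95.65 and 93.75 to 94.64 on the same groups of arrays. Both sums were lower on every CID array than on every control array. PDGFRA, a receptor of ASCs and fat precursors, had 14.95, 14.93 and 15.12 with CID, 15.78, 15.64 and 15.96 with DMSO, and 15.71, 15.51 and 15.72 with DM, and it fell by 0.65 against DM (SE 0.13, adjusted p = 0.0338 from limma) and by 0.79 against DMSO (adjusted p = 0.00843). The call against DM was lost without any 1 CID array, DM replicate 1 or 3 or DMSO replicate 1 (adjusted p up to 0.124). COL1A2, a collagen chain, lost its call without any 1 CID or DMSO array (up to 0.119) and with quantile normalization (0.0504), and the other stromal calls held in all 9 fits without an array. The part of these stromal genes in the lower values of CEBPD, KLF15, EBF1 and EBF2 was not tested.

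Among the other cell types, 1 of 13 keratinocyte markers passed the test. DSP, which encodes the desmosomal protein desmoplakin, had 11.38, 11.44 and 11.55 with CID, 10.77, 10.69 and 10.93 with DMSO, and 11.21, 10.74 and 11.01 with DM, and it rose by 0.66 against DMSO (SE 0.14, adjusted p = 0.0327 from limma), where 0.667% of all probe sets rose. Its log2 fold change against DM was 0.47 (adjusted p = 0.159 from limma). The call held in 2 of 9 fits, without DM replicate 1 or 2, and elsewhere the adjusted p was up to 0.119. The summed log2 values of the keratinocyte list overlapped between groups, at 75.30 to 75.39 with CID, 73.91 to 75.98 with DMSO and 74.07 to 76.16 with DM. Those of the adipocyte list were 89.87 to 92.35 with CID, 89.24 to 90.05 with DMSO and 89.10 to 89.77 with DM, with the CID arrays above the DM arrays but not above all DMSO arrays. Of 21 measured markers of endothelial, leukocyte, bone, cartilage and skeletal muscle cells, 13 were in the dimmest 33.3%. With CID 0 of them were DEGs by limma, beside 1.35% of all probe sets against DM and 2.41% against DMSO. An unadjusted p under 0.05 was reached by 4 higher and 2 lower genes against DM, beside 5.74% and 6.9% of all probe sets. Against DMSO it was reached by 1 higher and 1 lower gene, beside 7.2% and 7.96%.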

How the data were processed

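The deposited values are log2 intensities with 2 decimals, which the authors made with RMA in Transcriptome Analysis Console. This step corrects background, brings the arrays to a shared distribution and so hides shifts common to all genes. Its version and variant were not given in the sources used here.

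Group means of all 9 arrays were fitted in limma 3.58.1 (R 4.3.3, statmod 1.5.0), with 6 residual degrees of freedom, eBayes and Benjamini-Hochberg adjustment over 21448 probe sets. Platform annotation, which can be old, gave 1 symbol to 17709 probe sets and none to 3739. A gene was represented by its probe set of the highest mean. No pair of arrays was identical.

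The 10 factors and 14 further lists were chosen with earlier results of these data known. Named genes are all factors, DEGs of the lists (up to 6 a list), RXRA, RXRB, RXRG, FABP4, ADIPOQ, PLIN1, CIDEC, LPL and the 3 genes most like each called factor. Promoter windows are RefSeq, GRCh38.p14. The fit was tested on simulated data. The alternatives were other scalings, priors, filters, weights, thresholds, controls, a replicate block, the methods' t-test (the independent samples test of their general statistics, as their array DEGs rest on an adjusted p from Transcriptome Analysis Console with no test named) and leaving out each array. Figures used matplotlib.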

Additional observations from a re-analysis of the deposited data

How the results depend on the processing

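The log2 fold changes of the 10 factors were recomputed under each alternative, giving 577 values. Of these, 537 kept direction and side of the threshold, 17 passed it newly, 7 no longer passed it and 16 changed sign, and where no cause is named it was not tested. The count of DEGs against DM was 289 and became 476 with a trended and robust prior, 570 and 2 with the methods' t-test before and after adjustment, 523 against the mean of DM and DMSO, and 40 at a log2 fold change of 1.5. Leaving out an array gave 137 to 284. The count against DMSO, 517, became 21 with the adjusted t-test, 53 at the log2 threshold and 264 to 493 without an array. That of DMSO against DM, 1, became 5 with the trended prior, 131 with the unadjusted t-test, 0 with only those arrays, the replicate block, the adjusted t-test or the log2 threshold, and 0 to 1 without an array.

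Against DM, the factors called, 0, became 1 in a fit of only those arrays, with the trended prior, without the dimmest 33.3% (CEBPD in each) or with the replicate block (KLF15), and 2 with the unadjusted t-test or against the mean of controls (CEBPD and KLF15), with 0 to 1 without an array. Against DMSO, 1 became 0 in a fit of only those arrays, with the adjusted t-test and at the log2 threshold, and 2 with the trended prior, without the dimmest 33.3%, with array weights, the replicate block or the unadjusted t-test (CEBPD and KLF15), with 0 to 2 without an array. Quantile normalization, cyclic loess and median centring kept these counts and shifted the median of all probe sets by at most 0.05.

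Signs changed only for small differences. Against DM, PPARA was -0.02 with the mean of controls and PPARD -0.010 with array weights. Without an array, the fold changes against DM ran from -0.23 to 0.017 for PPARG, -0.048 to 0.29 for PPARA, -0.11 to 0.10 for PPARD and -0.023 to 0.12 for ZNF423. Against DMSO they ran from -0.26 to 0.082 for PPARA, -0.25 to 0.015 for CEBPA, -0.29 to 0.062 for CEBPB and -0.11 to 0.065 for ZNF423. For DMSO against DM they ran from -0.19 to 0.02 for PPARD, -0.20 to 0.018 for CEBPB, -0.10 to 0.19 for CEBPD and -0.0083 to 0.15 for ZNF423.

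Over all probe sets, same-numbered arrays hardly deviated together (correlations of -0.05 to 0.07, under 0.1), and the main fit did not pair them. This does not settle pairing for single genes. For KLF15 replicate 1 was the highest array with CID (7.99), DMSO (8.95) and DM (8.68). For CEBPD replicate 1 was the highest array with CID (8.91) and DMSO (9.81), while its DM arrays hardly differed (9.44, 9.43 and 9.47). In CID against DMSO each array correlated best with its own number. With the replicate block KLF15 was a DEG against DM (adjusted p = 0.0459 from limma) and DMSO (0.0118). Other probe sets of a factor could not be tried, because each had 1. The number of arrays, the dim values of CEBPA and the fold compression of RMA limit small differences.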
